A study of Bos grunniens with 18 samples.

Results

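The glycolysis and gluconeogenesis enzymes were described in the blood transcriptome of the yak (Bos grunniens) at 3 reproductive stages. The members were the rows of the expression table that the submitters' KEGG annotation placed in pathway 00010, Glycolysis / Gluconeogenesis, and that held 10 or more counts in at least 6 libraries. Of the 20607 rows of the table, 81 carried the pathway and 61 of these met the count minimum, and 60 of the 61 were among the 14508 genes tested. The row left untested was ENSBGRG00000011028, an enolase row whose level was at most 0.599 CPM in any library (counts scaled to library size by the TMM method).

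Whole blood was drawn from adult female yaks in anestrus (Y-A), in estrus (Y-E) and in pregnancy (Y-P), with 6 libraries per stage. The cows were 4 to 8 years old and in their second year of calving, and came from a herd whose estrus was synchronized with a progesterone pessary, cloprostenol and gonadotropin-releasing hormone before timed insemination. The day of pregnancy and the time of the anestrus sample relative to this treatment were not given in the sources used here, so reproductive stage, season and hormone treatment cannot be told apart. Blood of 6 cows was tracked over the stages, and libraries with the same number were taken as those of 1 cow.

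Glycolysis breaks glucose down to pyruvate in the cytosol, yielding ATP and NADH, and gluconeogenesis runs most of the same reactions backwards, with its own enzymes at the irreversible steps. Pyruvate is reduced to lactate by lactate dehydrogenase or oxidized to acetyl-CoA in the mitochondrion by the pyruvate dehydrogenase complex. In blood, neutrophils and mature red cells meet their energy needs largely through glycolysis, the red cells having no mitochondria, while resting lymphocytes rely more on oxidation in the mitochondrion.

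The libraries held 30247267 to 48401076 counts. Hemoglobin genes took a median of 5.64% of the counts in Y-A, 0.452% of them in Y-E and 0.0463% of them in Y-P. The highest share was in Y-A replicate 6 (16.7%), and Y-E replicate 6, at 8.36%, stood apart from its stage. Y-E replicate 6 also has no entry in the study's sequencing statistics used here, so the members that passed in Y-P vs Y-E are given with and without it. PTPRC, the pan-leukocyte marker CD45, was high in all libraries (2942 to 4136 CPM). The summed level of 6 neutrophil markers had stage medians of 5256 (Y-A), 9965 (Y-E) and 3419 CPM (Y-P). In Y-P vs Y-E 4 of the 5 neutrophil markers tested were lower at an adjusted p under 0.05, against 8.68% of all genes. In the same order, the summed T cell markers had medians of 826, 859 and 1129 CPM. The monocyte markers had 751, 923 and 571 CPM, the B cell markers 1264, 1105 and 1461 CPM and the platelet markers 334, 333 and 199 CPM. Of the T cell markers, 3 of 6 were higher in Y-P vs Y-E, against 5.77% of all genes. Among the monocyte, B cell and platelet markers, CD68, TUBB1 and GP1BA were lower in Y-P vs Y-E, and no other had an adjusted p under 0.05. In whole blood, a smaller number of cells of a type and less RNA per cell cannot be told apart, and the part of these cell types in the results below was not tested.

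Not every row in the pathway was named for the enzyme of its KEGG entry. The gene symbols LUC7L3, ARID5B, EFCAB7, SOGA1 and MTCL1 belong to proteins of RNA splicing, chromatin, the cilium or the cytoskeleton, although their rows carry the entries of a glucokinase, a hexokinase, a phosphoglucomutase and acetyl-CoA synthetases. The EFCAB7 row carries another entry beside that of the phosphoglucomutase. Whether these rows also hold reads of the enzymes was not examined. ENSBGRG00000000599 carried the pathway with no enzyme entry. The other 55 rows carried an enzyme entry and no symbol of another gene, which does not show that each encodes a working enzyme. Of the 61 rows, 59 were typed as protein coding, ENSBGRG00000020740 (chromosome 2, 32305343 to 32306697) was typed as a long noncoding RNA, and ENSBGRG00000023969 (chromosome X, 67371018 to 67371360) as a pseudogene. Coordinates are those of the table, whose genome the study names as Bos grunniens v101.

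Levels of different enzymes were compared per exon length, as FPKM, fragments scaled by exon length and library size. The table's glyceraldehyde-3-phosphate dehydrogenase row, ENSBGRG00000001042 (chromosome 5, 110945972 to 110950568), was the most abundant member, with a mean of 1273 FPKM over the 18 libraries. ALDOA, the aldolase that splits fructose bisphosphate, followed at 574 FPKM, PKM, the pyruvate kinase of most tissues, at 447 FPKM and ENO1, the ubiquitous enolase, at 278 FPKM. All 4 act in the lower, ATP-yielding arm of glycolysis or at its entry. The enzymes of the upper arm were lower, with 130 FPKM for HK3, 125 FPKM for GPI, which interconverts glucose 6-phosphate and fructose 6-phosphate, 29.1 FPKM for PFKP and 20.5 FPKM for PFKL.

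**Figure D1:**
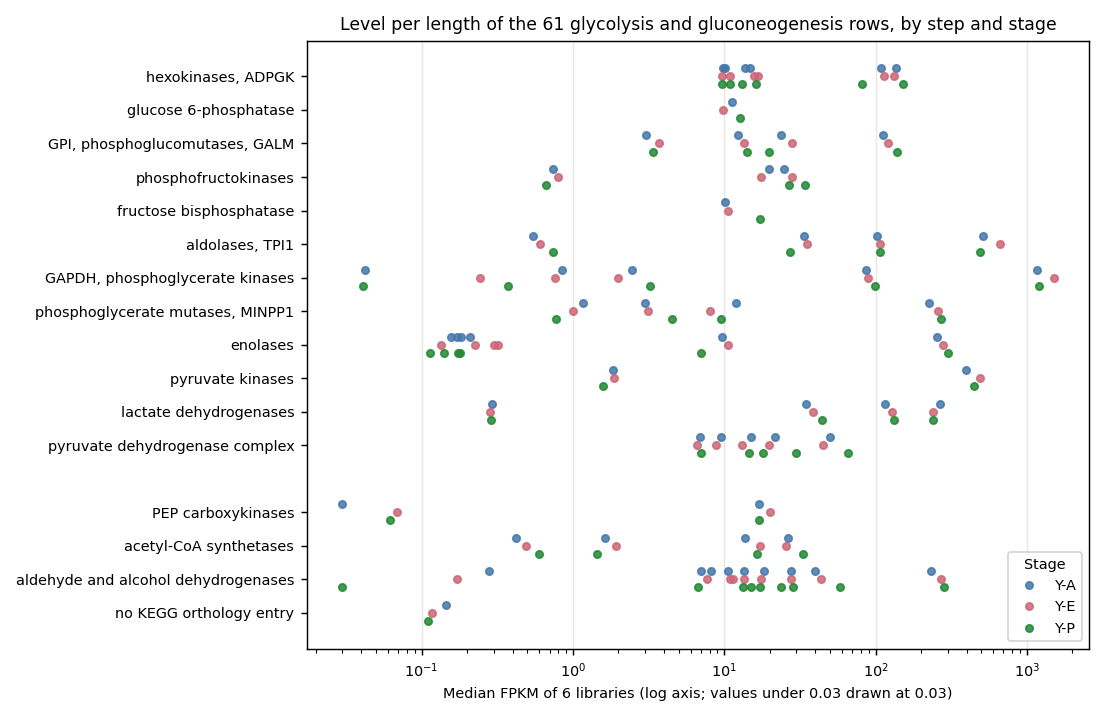
Median FPKM of 6 libraries (x axis, logarithmic) of each of the 61 rows, placed by the step of its KEGG entry (y axis) and coloured by stage. The row furthest to the right is the glyceraldehyde-3-phosphate dehydrogenase row ENSBGRG00000001042, with medians of 1164 (Y-A), 1506 (Y-E) and 1202 (Y-P) FPKM. PCK1 in Y-A and ALDH3A1 in Y-P had a median of 0.

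Of the enzymes particular to gluconeogenesis, the mitochondrial phosphoenolpyruvate carboxykinase PCK2 had a mean of 18.2 FPKM, the fructose bisphosphatase FBP2 12.7 FPKM and the ubiquitous glucose 6-phosphatase G6PC3 11.6 FPKM. PCK1, the cytosolic carboxykinase of liver and kidney, was at 0.0571 FPKM. FBP2 spans 16959163 to 17247403 on chromosome 7 and overlaps DAPK1 and CTSL on the other strand, and PCK1 overlaps RBM38 on its own strand, so reads of neighbours may be counted in these rows. The strand setting of the counting was not given in the sources used here.

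The members' summed level was 3666 to 4592 FPKM in Y-A (median 4255), 4434 to 6006 FPKM in Y-E (median 4958) and 3975 to 5276 FPKM in Y-P (median 4622). The 3 stages overlapped. As a share of all counts the members took 0.675% to 0.90% in Y-A, 0.820% to 1.18% in Y-E and 0.774% to 1.06% in Y-P.

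The comparison of estrus with anestrus asks which blood transcripts change as cows enter estrus. No member passed an adjusted p under 0.05 in Y-E vs Y-A by edgeR's quasi-likelihood test with Benjamini-Hochberg adjustment over all genes tested, where 0.0207% of all genes passed (3 genes, all lower in Y-E). At an unadjusted p under 0.05 there were 2 of the 60 members (3.33%), against 6.2% of all genes. Without Y-E replicate 6 again no member passed, against 0.157% of all genes. DESeq2 called 1 member, ENSBGRG00000012448, against 0.756% of the genes to which it gave an adjusted p. The members' median log2 fold change was 0.08, beside -0.01 over all genes tested, with 40 of the 60 fitted higher in Y-E and 20 lower.

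The comparison of pregnancy with anestrus gave 1 member past an adjusted p under 0.05 (1.67% of 60), against 5.83% of all genes (2.22% higher in Y-P and 3.61% lower). That member was LUC7L3, a splicing factor gene filed under an ADP-dependent glucokinase entry. None of the 54 tested rows with an enzyme entry and no symbol of another gene passed. None passed with the study's fold threshold added, a log2 fold change of 1 or more in size, which 1.43% of all genes did. At an unadjusted p under 0.05 there were 14 members (23.3%), against 22.7% of all genes. With the cow's number as a block, 3 members passed: LUC7L3, PGM2 and ALDH7A1, against 8.84% of all genes. DESeq2 called 5, against 11.6% of the genes to which it gave an adjusted p. The median log2 fold change of the members was -0.03, beside 0.03 over all genes. Scaled by library size alone 7 members passed, 6 of them higher in Y-P (against 7.41% of all genes higher and 1.78% lower), and limma on log2(FPKM + 1) called 14, 13 of them higher (against 13.0% and 1.56%). These scalings moved the median of all genes from 0.03 to 0.19 and 0.15, so the directions given here are relative to the TMM scale.

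Pregnancy against estrus was the comparison in which the most members passed. Of the 60 members 10 (16.7%) passed an adjusted p under 0.05, against 14.4% of all genes, 4 of them higher in Y-P, against 5.77% of all genes, and 6 lower, against 8.68%. These shares were near those of all genes. At an unadjusted p under 0.05 there were 21 members (35.0%), against 29.3% of all genes. The 4 that rose were PDHA1, PDHB and DLAT of the pyruvate dehydrogenase complex and ADH5. The 6 that fell were PGM2, ALDOA, ENO3, the aldehyde dehydrogenase row ENSBGRG00000012448 and the rows named LUC7L3 and ARID5B. Without Y-E replicate 6 there were 10 again (3 higher, 7 lower), against 13.7% of all genes, with the glyceraldehyde-3-phosphate dehydrogenase row added and ADH5 lost. With the cow's number as a block there were 13 (4 higher, 9 lower), against 7.22% of all genes higher and 10.8% lower, with that row, ALDOC, ALDH7A1 and the row named SOGA1 added and ADH5 lost. Scaled by library size alone the split was 7 higher and 3 lower (12.4% and 5.22% of all genes), and with limma on log2(FPKM + 1) it was 9 higher and 2 lower (16.5% and 4.61%), with the median of all genes moved from 0.04 to 0.18 and 0.14. The members' median was -0.11 on the TMM scale, and 40 of the 60 were fitted lower. With the fold threshold added, 2 members passed (ENSBGRG00000012448 and ENO3), against 2.67% of all genes. That count fell to 0 with the block, with library size alone, with limma and with only the 2 stages in the fit.

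**Figure D2:**
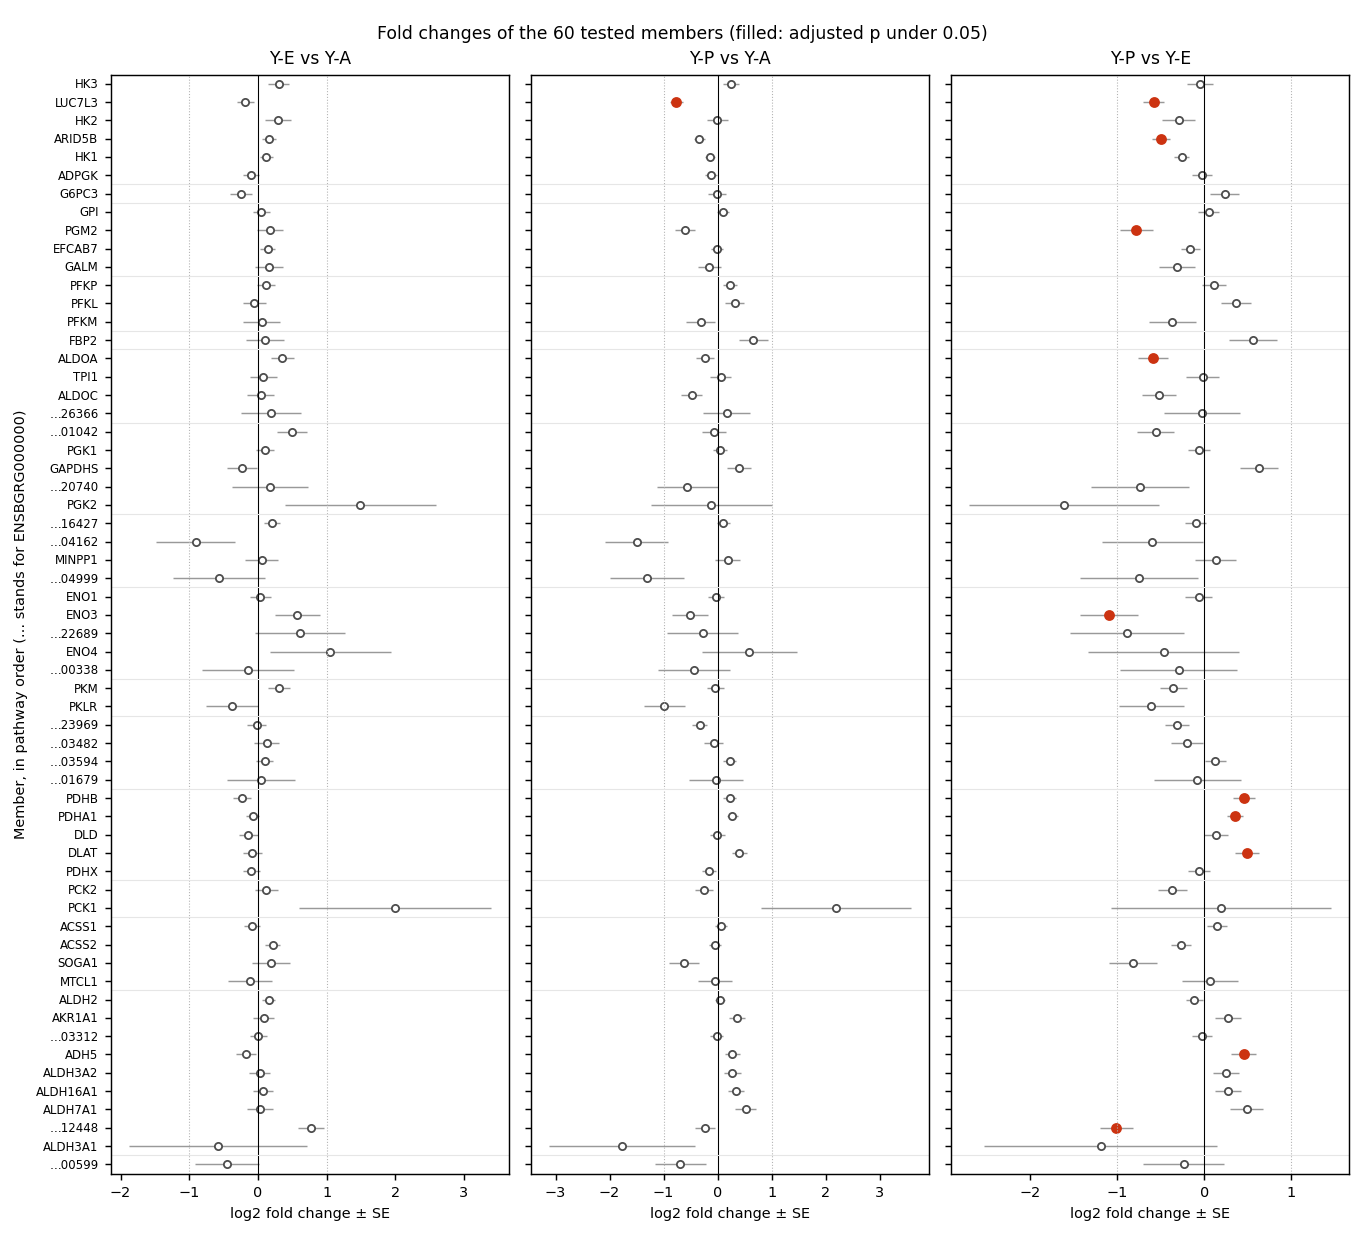
Log2 fold change ± SE (x axis) of the 60 tested members in pathway order (y axis) in the 3 comparisons, from the fit over all genes, with filled points for an adjusted p under 0.05 and dotted lines at a log2 fold change of -1 and 1. No point is filled in Y-E vs Y-A, 1 is filled in Y-P vs Y-A and 10 in Y-P vs Y-E.

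The pyruvate dehydrogenase complex commits pyruvate to oxidation in the mitochondrion. It is built of an E1 component encoded by PDHA1 and PDHB, an E2 acetyltransferase encoded by DLAT, an E3 dehydrogenase encoded by DLD and the E3-binding protein PDHX. Of its 5 rows 3 rose and 0 fell in Y-P vs Y-E, against 5.77% and 8.68% of all genes, and the median log2 fold change of the 5 was 0.35, beside 0.04 over all genes. The summed level of the complex was 88.8 to 124 FPKM in Y-A (median 102.8), 79.5 to 114 FPKM in Y-E (median 92.9) and 112 to 177 FPKM in Y-P (median 135).

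PDHA1 (chromosome X, 135651062 to 135674000) was at 54.9 to 70.0 CPM in Y-A (median 65.4), 53.2 to 72.0 CPM in Y-E (median 60.6) and 71.0 to 86.8 CPM in Y-P (median 77.5). Every Y-P library was above every Y-A library and above all Y-E libraries but replicate 6. Y-P exceeded Y-E by a log2 fold change of 0.35 ± 0.09 (SE), with an adjusted p of 0.0181 in edgeR's quasi-likelihood test, and of 0.00951 without Y-E replicate 6. In Y-P vs Y-A it was 0.28 ± 0.09, with an adjusted p of 0.0836, although these stages did not overlap (1.23% of all genes did not overlap in this direction). DESeq2, library size scaling and both limma fits put the Y-P vs Y-A difference past the threshold.

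PDHB (chromosome 22, 20232484 to 20237474) was at 62.1 to 85.5 CPM in Y-A (median 67.6), 53.1 to 66.5 CPM in Y-E (median 59.9) and 67.9 to 110 CPM in Y-P (median 74.0). The Y-P and Y-E libraries did not overlap, as did 2.19% of all genes in this direction, and 2 Y-P libraries, replicates 3 and 5, were far above the other 4. In Y-P vs Y-E the log2 fold change was 0.46 ± 0.13 (SE), with an adjusted p of 0.0205 in edgeR's test. It was 0.0217 without Y-E replicate 6 and 0.0531 without Y-P replicate 5.

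DLAT (chromosome 13, 66073172 to 66108914) was at 18.2 to 25.9 CPM in Y-A (median 24.1), 17.9 to 28.7 CPM in Y-E (median 21.3) and 24.3 to 38.7 CPM in Y-P (median 30.0). Y-E replicate 6 was the highest of its stage and lay within the Y-P range, and the other 5 Y-E libraries lay under it. Between Y-P and Y-E the log2 fold change was 0.49 ± 0.14 (SE), with an adjusted p of 0.0245 in edgeR's test, and of 0.00894 without Y-E replicate 6. Leaving out 1 other library at a time lost the call in 4 cases, Y-E replicates 1, 2 and 3 and Y-P replicate 5, with an adjusted p of at most 0.0634.

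DLD differed between Y-P and Y-E by 0.13 ± 0.14 on the log2 scale (adjusted p 0.582) and PDHX by -0.06 ± 0.12 (adjusted p 0.793), both by edgeR's test. DLD also serves other dehydrogenase complexes of the mitochondrion. PDHX overlaps ENSBGRG00000020447 on its own strand.

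ADH5, a class III alcohol dehydrogenase that oxidizes the glutathione adduct of formaldehyde, was at 38.6 to 53.4 CPM in Y-A (median 44.3), 35.2 to 44.2 CPM in Y-E (median 41.5) and 42.0 to 74.6 CPM in Y-P (median 52.3). Of the 6 Y-P libraries 3 were above all others and 3 lay within the Y-A range. Its log2 fold change in Y-P vs Y-E was 0.45 ± 0.14 (SE), with an adjusted p of 0.0418 in edgeR's test, the highest of the 10 members that passed. The adjusted p was 0.0584 without Y-E replicate 6 and 0.0511 with the block, and the call was lost in 14 of 28 alternatives.

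**Figure D3:**
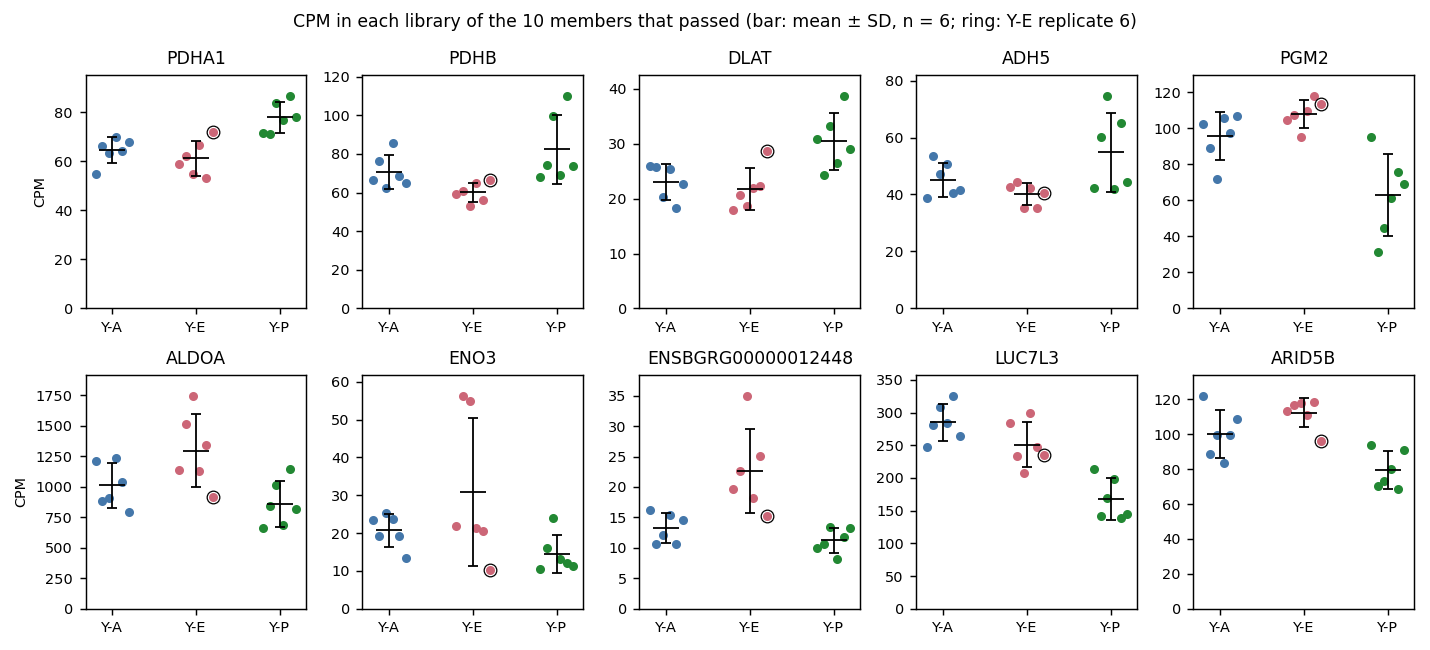
CPM of the 10 members that passed in any comparison (y axes, from 0) in each library of the 3 stages (x axes), with the mean ± SD of 6 libraries as a bar and a ring around Y-E replicate 6. PDHA1, PDHB, DLAT and ADH5 have their highest libraries in Y-P, while ALDOA, ENO3 and ENSBGRG00000012448 have theirs in Y-E.

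Of the rows that fell in Y-P vs Y-E, as 8.68% of all genes did, ALDOA and ENO3 act in glycolysis and PGM2 beside it. PGM2, which interconverts glucose 1-phosphate and glucose 6-phosphate and ribose phosphates, was at 71.7 to 107 CPM in Y-A (median 99.9), 95.3 to 118 CPM in Y-E (median 109) and 31.1 to 95.3 CPM in Y-P (median 65.2). Y-P replicate 1 was level with the lowest Y-E library and the other 5 lay under all of Y-E, down to Y-P replicate 2 at 31.1 CPM. In Y-P vs Y-E the log2 fold change was -0.78 ± 0.19 (SE), with an adjusted p of 0.0108 in edgeR's test, and of 0.0182 without Y-E replicate 6. In Y-P vs Y-A it was -0.60 ± 0.19 with an adjusted p of 0.0642, and with the block the adjusted p was 0.0245.

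ALDOA (chromosome 26, 18286208 to 18289649) was at 789 to 1239 CPM in Y-A (median 976), 913 to 1742 CPM in Y-E (median 1237) and 659 to 1143 CPM in Y-P (median 830). The stages overlapped. Y-E replicate 3 was the highest library and Y-P replicate 1 the lowest. The log2 fold change in Y-P vs Y-E was -0.59 ± 0.17 (SE), with an adjusted p of 0.0262 in edgeR's test and of 0.0132 without Y-E replicate 6. It was no longer past the threshold when scaled by library size (0.0548) or fitted by limma on log2(FPKM + 1) (0.0811).

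ENO3, the enolase of muscle, was at 13.3 to 25.4 CPM in Y-A (median 21.4), 10.3 to 56.2 CPM in Y-E (median 21.6) and 10.4 to 23.9 CPM in Y-P (median 12.6). The Y-E libraries were split, with replicates 2 and 3 at 56.2 and 54.8 CPM, 3 libraries between 20.7 and 22.0 CPM and replicate 6 at 10.3 CPM. Y-P differed from Y-E by a log2 fold change of -1.09 ± 0.33 (SE), with an adjusted p of 0.0339 in edgeR's test, and of 0.00894 without Y-E replicate 6. Without Y-E replicate 2 it was -0.83, with an adjusted p of 0.106, and the call was lost in 11 of 28 alternatives. ENO1, far more abundant per length, was fitted at -0.07 ± 0.15 (adjusted p 0.823).

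The aldehyde dehydrogenase row ENSBGRG00000012448 (chromosome 29, 6427769 to 6443438), which oxidizes aldehydes to acids and has no gene symbol in the table, was at 10.6 to 16.2 CPM in Y-A (median 13.4), 15.2 to 34.9 CPM in Y-E (median 21.2) and 8.15 to 13.4 CPM in Y-P (median 11.2). All Y-E libraries were above all Y-P libraries, as 3.84% of all genes were, and Y-E replicate 6 was the lowest of its stage. Between Y-P and Y-E the log2 fold change was -1.01 ± 0.19 (SE), with an adjusted p of 0.00199 in edgeR's test, the smallest of all members in this comparison. It passed in all 28 alternatives, with an adjusted p of 0.000949 without Y-E replicate 6. In Y-E vs Y-A the log2 fold change was 0.77 ± 0.19 with an adjusted p of 0.280, and of 0.0236 with DESeq2.

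The 2 other rows that passed are named for genes outside the pathway. LUC7L3 was at 247 to 325 CPM in Y-A (median 283), 207 to 299 CPM in Y-E (median 241) and 139 to 213 CPM in Y-P (median 157). Every Y-P library was below every Y-A library, as for 2.32% of all genes. It was fitted at -0.76 ± 0.12 (SE) in Y-P vs Y-A, with an adjusted p of 0.00263, and -0.58 ± 0.12 in Y-P vs Y-E, with an adjusted p of 0.00469, both by edgeR's test on the log2 scale. The call against Y-E had an adjusted p of 0.00660 without Y-E replicate 6, and was lost with library size scaling (0.0531) and limma (at most 0.0692). ARID5B, a DNA-binding chromatin regulator, was at 83.5 to 122 CPM in Y-A (median 99.5), 96.3 to 119 CPM in Y-E (median 115) and 68.4 to 93.6 CPM in Y-P (median 76.7), with no overlap of Y-P and Y-E. Its log2 fold change in Y-P vs Y-E was -0.50 ± 0.11 (SE), with an adjusted p of 0.00479, and of 0.00382 without Y-E replicate 6. In this direction 3.84% of all genes did not overlap.

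Hexokinases trap glucose in the cell as glucose 6-phosphate. HK3, the isozyme of myeloid cells, was at 284 to 601 CPM in Y-A (median 544), 508 to 771 CPM in Y-E (median 620) and 506 to 655 CPM in Y-P (median 630). The lowest library was Y-A replicate 6, the library richest in hemoglobin RNA. HK3 had a log2 fold change of 0.30 ± 0.15 in Y-E vs Y-A (adjusted p 0.832) and 0.25 ± 0.15 in Y-P vs Y-A (adjusted p 0.345), and these were 0.17 and 0.10 without that library. HK1, the isozyme of brain and red cells, had -0.26 ± 0.09 in Y-P vs Y-E, with an adjusted p of 0.0531 in edgeR's test, and HK2 had -0.29 ± 0.19 (adjusted p 0.332). GPI, the next enzyme, was at 198 to 336 CPM in Y-A (median 240), 234 to 306 CPM in Y-E (median 269) and 245 to 304 CPM in Y-P (median 274), and its adjusted p was at least 0.665 in the 3 comparisons.

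The make-up of an isozyme family within a library does not depend on the scaling between libraries. HK3 held 81.4% ± 3.24 (SD, n = 6) of the summed FPKM of HK1, HK2 and HK3 in Y-A, 82.6% ± 2.81 of it in Y-E and 84.9% ± 1.81 of it in Y-P. In a two-sided exact permutation test the difference of 3.48 percentage points between Y-P and Y-A had p = 0.0173. Its adjusted p over the 9 share tests was 0.0779. The share tests here and below shuffled libraries between stages and did not pair those of 1 cow. In counts in place of FPKM the adjusted exact permutation p was 0.0292 and the difference 5.14 points. Y-A replicate 6 had the lowest share (74.9%), and without it the difference was 2.19 points, the smallest of any library left out.

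Phosphofructokinase, which commits sugar to glycolysis, is assembled from subunits encoded by PFKL, PFKM and PFKP. PFKL held 40.4% ± 5.34 (SD, n = 6) of their summed FPKM in Y-A, 38.0% ± 2.24 of it in Y-E and 42.7% ± 1.77 of it in Y-P. The difference of 4.77 points between Y-P and Y-E had an exact permutation p of 0.00649 and an adjusted p of 0.0584, and in counts the adjusted p was 0.0292. PFKP had median shares of 57.4%, 60.6% and 55.3%, and PFKM of 1.75%, 1.68% and 1.16% in Y-A, Y-E and Y-P. PFKP, the most abundant of the 3 per length, was at 109 to 149 CPM in Y-A (median 124), 123 to 155 CPM in Y-E (median 133) and 102 to 190 CPM in Y-P (median 151), with wide overlap. None of the 3 genes passed in any comparison. PFKP overlaps PITRM1 on the other strand.

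ALDOA held 93.9% ± 1.09 (SD, n = 6) of the summed FPKM of ALDOA and ALDOC in Y-A, 94.9% ± 1.54 of it in Y-E and 94.8% ± 0.941 of it in Y-P. The 3 differences had exact permutation p-values of 0.132 to 0.903. ALDOC, the aldolase of brain, had a log2 fold change of -0.52 ± 0.19 in Y-P vs Y-E, with an adjusted p of 0.0741 in edgeR's test and of 0.0392 with the block.

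The glyceraldehyde-3-phosphate dehydrogenase row ENSBGRG00000001042, whose enzyme forms the first high-energy phosphate of the lower arm, was at 1050 to 1758 CPM in Y-A (median 1550), 1306 to 3214 CPM in Y-E (median 2069) and 956 to 2001 CPM in Y-P (median 1404). Y-E replicates 2, 3 and 5 were above every library of the other stages, and Y-E replicate 6 was the lowest of its stage. The log2 fold change in Y-P vs Y-E was -0.56 ± 0.22 (SE), with an adjusted p of 0.0882 in edgeR's test, of 0.0416 without Y-E replicate 6 and of 0.0344 with the block. Reads shared with near-identical copies of this gene could not be told apart here. The testis paralog GAPDHS, at 2.59 FPKM on average, had 0.63 ± 0.22 (adjusted p 0.0578).

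Of the next enzymes of the lower arm, PGK1, the phosphoglycerate mutase row, ENO1 and PKM did not pass in any comparison. PGK1, which makes ATP from bisphosphoglycerate, was at 200 to 342 CPM over all libraries. The phosphoglycerate mutase row ENSBGRG00000016427 (chromosome 25, 20084974 to 20090976) was at 289 to 371 CPM in Y-A (median 333), 351 to 416 CPM in Y-E (median 386) and 256 to 451 CPM in Y-P (median 355). ENO1 was at 705 to 861 CPM in Y-A (median 782), 676 to 922 CPM in Y-E (median 821) and 495 to 1073 CPM in Y-P (median 796). In both, the Y-P libraries spread widest and the stages overlapped. PKM was at 988 to 1492 CPM in Y-A (median 1154), 1011 to 2075 CPM in Y-E (median 1455) and 929 to 1528 CPM in Y-P (median 1118), with its highest libraries in Y-E. The log2 fold changes of PGK1, ENSBGRG00000016427 and PKM in Y-P vs Y-E were -0.06 ± 0.13, -0.10 ± 0.12 and -0.35 ± 0.16, with adjusted p-values of 0.808, 0.628 and 0.134 in edgeR's test. TPI1, which interconverts the triose phosphates, had -0.02 ± 0.19 (adjusted p 0.962).

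Lactate dehydrogenase regenerates NAD by reducing pyruvate. Its 4 rows carry no gene symbol, so the A and B subunits could not be told apart and their share was not analysed here. ENSBGRG00000003482 (chromosome 5, 14383575 to 14405290) was at 168 to 381 CPM over all libraries. The row typed as a pseudogene, ENSBGRG00000023969, had 35.7 to 50.7 CPM in Y-A (median 43.8), 36.4 to 55.0 CPM in Y-E (median 42.9) and 26.9 to 43.1 CPM in Y-P (median 35.0). Its mean was 248 FPKM, over a span of only 343 bases, and it held a median of 62.9% of the summed FPKM of the 4 rows in Y-A, 60.3% of it in Y-E and 57.4% of it in Y-P. Rows of 1 family can share sequence, so the levels of single rows are uncertain. None of the 4 passed in any comparison.

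3 members were highest in Y-A replicate 6 and Y-E replicate 6, the libraries with the highest summed red cell markers (12570 and 5427 CPM). ENSBGRG00000004162 (chromosome 4, 23433045 to 23454258), filed under bisphosphoglycerate mutase, the enzyme that makes the red cell's regulator of oxygen release, was at 87.8 CPM in Y-A replicate 6 and 38.0 CPM in Y-E replicate 6. In the other 16 libraries it was at 6.33 to 12.5 CPM. PKLR, the pyruvate kinase of liver and red cells, was at 26.9 CPM in Y-A replicate 6 and 13.0 CPM in Y-E replicate 6, against 3.82 to 9.13 CPM elsewhere. ENSBGRG00000004999 (chromosome 11, 67773988 to 67774767), a second row of the bisphosphoglycerate mutase entry, was at 6.26 and 3.34 CPM in these libraries and at 0.0786 to 1.69 CPM in the others. It spans only 780 bases, against 21214 for ENSBGRG00000004162. Rows of 1 entry can share sequence, so the levels of these rows may not be independent. The 5 libraries with the highest hemoglobin share were also the 5 highest in ENSBGRG00000004162. Among them was Y-A replicate 1, with a share of 12.1% and 12.5 CPM. This did not hold for the other rows. Y-A replicate 1 was 13th of the 18 libraries in ENSBGRG00000004999 (0.672 CPM). Y-A replicate 4, which was 5th in hemoglobin share, was 17th in PKLR (4.17 CPM).

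The log2 fold change of ENSBGRG00000004162 in Y-P vs Y-A was -1.50 ± 0.59 (SE), with an adjusted p of 0.132 in edgeR's test, and -0.37 ± 0.39 (adjusted p 0.646) without Y-A replicate 6. For PKLR it was -0.99 ± 0.38 (adjusted p 0.126) and -0.38 ± 0.25 (adjusted p 0.427) without that library. In Y-E vs Y-A both values changed sign without it, from -0.91 to 0.22 for ENSBGRG00000004162 and from -0.38 to 0.24 for PKLR. Without Y-E replicate 6 in its place they were -1.68 and -0.61. The value of ENSBGRG00000004162 in Y-P vs Y-E went from -0.60 to 0.17 without Y-E replicate 6, and that of PKLR from -0.61 to -0.37. All 9 red cell markers tested were lower in Y-P vs Y-A at an adjusted p under 0.05, against 3.61% of all genes. Their part in the values of these members was not tested.

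**Figure D4:**
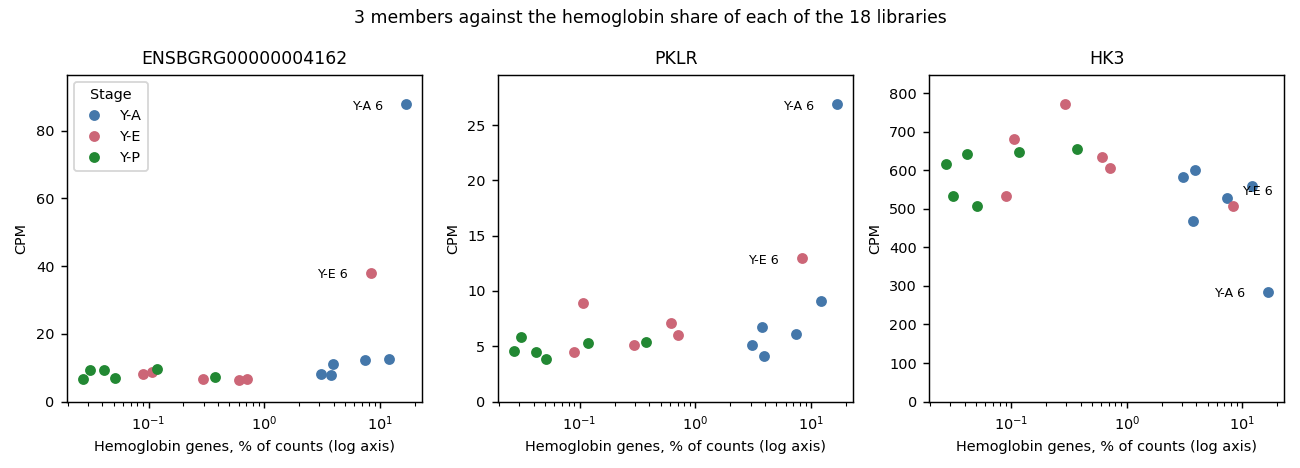
CPM (y axes, from 0) of ENSBGRG00000004162, PKLR and HK3 against the percent of counts on hemoglobin genes (x axes, logarithmic) in each of the 18 libraries, coloured by stage. Y-A replicate 6 and Y-E replicate 6, labelled, have the 2 highest values of ENSBGRG00000004162 (87.8 and 38.0 CPM) and of PKLR (26.9 and 13.0 CPM), and Y-A replicate 6 has the lowest HK3 (284 CPM).

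The gluconeogenic enzymes did not pass in any comparison. FBP2 was at 14.5 to 57.9 CPM in Y-A (median 40.2), 25.8 to 61.8 CPM in Y-E (median 39.5) and 37.6 to 83.3 CPM in Y-P (median 54.9), with a log2 fold change of 0.66 ± 0.27 in Y-P vs Y-A (adjusted p 0.154). The stages overlapped, with the highest libraries in Y-P. PCK2 was at 34.6 to 57.3 CPM in Y-A (median 39.4), 29.7 to 58.2 CPM in Y-E (median 49.3) and 29.8 to 45.7 CPM in Y-P (median 34.7), and G6PC3 at 15.5 to 26.0 CPM in Y-A (median 17.4), 14.6 to 18.5 CPM in Y-E (median 16.3) and 15.0 to 25.4 CPM in Y-P (median 18.2). In Y-P vs Y-E the log2 fold change was -0.37 ± 0.17 for PCK2 (adjusted p 0.147) and 0.23 ± 0.16 for G6PC3 (adjusted p 0.375). PCK1 was at a median of 0 CPM in Y-A and at most 0.898 CPM in any library, where a floor of 3 counts is worth 0.0620 to 0.0992 CPM before the TMM factor.

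The remaining members convert acetate, ethanol and aldehydes. ALDH2, which clears acetaldehyde in the mitochondrion, was at 260 FPKM on average and at 421 to 482 CPM in Y-A (median 455), 458 to 569 CPM in Y-E (median 504) and 393 to 543 CPM in Y-P (median 463), with an adjusted p of at least 0.482 in the 3 comparisons of edgeR's test. ALDH7A1, an aldehyde dehydrogenase of lysine breakdown, had a log2 fold change of 0.52 ± 0.19 in Y-P vs Y-A and 0.48 ± 0.19 in Y-P vs Y-E, with adjusted p-values of 0.106 and 0.0905. With the block these were 0.0377 and 0.0334. The acetyl-CoA synthetases ACSS1 and ACSS2, which activate acetate, had log2 fold changes of 0.15 ± 0.11 and -0.27 ± 0.11 in Y-P vs Y-E, with adjusted p-values of 0.418 and 0.120. ACSS1 was at 95.7 to 117 CPM in Y-A (median 111), 80.5 to 121 CPM in Y-E (median 105) and 86.6 to 141 CPM in Y-P (median 116), all overlapping.

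Around the pathway, 37 genes of 6 related lists were examined, of which 35 were tested. In Y-P vs Y-E 13 of them passed, 3 higher and 10 lower, in Y-P vs Y-A 5 passed, 2 higher and 3 lower, and in Y-E vs Y-A 1 passed. The 3 that rose in Y-P vs Y-E were SLC2A13, PDK1 and PDK2. Over all genes 5.77% rose and 8.68% fell in Y-P vs Y-E, 2.22% rose and 3.61% fell in Y-P vs Y-A, and 0.0207% passed in Y-E vs Y-A. Without Y-E replicate 6, 12 of the 13 passed in Y-P vs Y-E, with SLC2A13 lost. In the same comparison the summed neutrophil markers were at 4690 to 12390 CPM in Y-E and at 2639 to 5945 CPM in Y-P.

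Of the 7 glucose transporters tested, 2 fell and 1 rose in Y-P vs Y-E. In this comparison 3.84% of all genes had every Y-P library below every Y-E library. That share stands beside each lack of overlap of Y-E and Y-P given below. SLC2A9, a urate and sugar transporter, was at 37.5 to 62.5 CPM in Y-A (median 50.3), 57.7 to 116 CPM in Y-E (median 75.1) and 28.6 to 44.8 CPM in Y-P (median 34.6), with no overlap of Y-E and Y-P and a log2 fold change of -1.21 ± 0.17 (adjusted p 0.000302). SLC2A6, a lysosomal family member of leukocytes, had -1.03 ± 0.31 (adjusted p 0.0297, lost in 7 of 28 alternatives), and SLC2A13, the proton myo-inositol carrier, 0.74 ± 0.24 (adjusted p 0.0489, lost in 16 of 28 alternatives). SLC2A1, the basal glucose transporter, had -0.13 ± 0.12 (adjusted p 0.519). Its level was at 22.4 to 39.4 CPM over all libraries.

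Of the 6 lactate and pyruvate carriers, 2 fell in Y-P vs Y-E. SLC16A3, the lactate exporter of glycolytic cells, was at 164 to 270 CPM in Y-A (median 202), 253 to 504 CPM in Y-E (median 321) and 126 to 210 CPM in Y-P (median 161), with no overlap of Y-E and Y-P. Its log2 fold change was -1.03 ± 0.17 (SE), with an adjusted p of 0.00105 in edgeR's test, and that of EMB, a chaperone of such carriers, -0.84 ± 0.22, with an adjusted p of 0.0163.

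Of the 4 regulators of fructose bisphosphate, 2 fell in Y-P against both other stages. PFKFB3 and PFKFB4 make and remove the activator of phosphofructokinase. PFKFB3 was at 241 to 391 CPM in Y-A (median 342), 292 to 578 CPM in Y-E (median 392) and 173 to 274 CPM in Y-P (median 192), and all Y-P libraries were below all Y-E libraries. Its log2 fold change was -1.0 ± 0.18 in Y-P vs Y-E (adjusted p 0.00139) and -0.65 ± 0.17 in Y-P vs Y-A (adjusted p 0.0355). PFKFB4 had -0.84 ± 0.14 (adjusted p 0.00115) and -0.50 ± 0.14 (adjusted p 0.0429). The calls against Y-A were lost with library size scaling, with both limma fits and without single libraries, in 11 of 28 alternatives for PFKFB3 and in 15 for PFKFB4.

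The 4 pyruvate dehydrogenase kinases, which switch the complex off, moved in different directions. PDK4, the kinase of fasting and fat oxidation, was at 47.4 to 75.3 CPM in Y-A (median 57.9), 17.3 to 31.7 CPM in Y-E (median 25.1) and 18.6 to 41.6 CPM in Y-P (median 34.8). All Y-A libraries were above all Y-P libraries, as for 2.32% of all genes. Its log2 fold change was -1.27 ± 0.19 (SE) in Y-E vs Y-A, with an adjusted p of 0.00835 in edgeR's test, and -0.86 ± 0.19 in Y-P vs Y-A, with an adjusted p of 0.0143, and both passed in all 28 alternatives. It was 1 of the 3 genes of the whole table that passed in Y-E vs Y-A.

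PDK1 was at 33.8 to 51.6 CPM in Y-A (median 37.4), 28.8 to 44.0 CPM in Y-E (median 36.1) and 43.9 to 84.3 CPM in Y-P (median 65.4), with Y-P highest. It rose by 0.71 ± 0.16 in Y-P vs Y-A (adjusted p 0.0151) and by 0.82 ± 0.16 in Y-P vs Y-E (adjusted p 0.00247). PDK2 rose by 0.56 ± 0.13 in Y-P vs Y-E (adjusted p 0.00818) and by 0.45 ± 0.13 in Y-P vs Y-A (adjusted p 0.0469), the latter lost in 16 of 28 alternatives. PDK3 fell by 0.69 ± 0.18 in Y-P vs Y-E on the log2 scale (adjusted p 0.0141), a call lost in both limma fits, and neither phosphatase, PDP1 or PDP2, passed.

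Of the 5 pentose phosphate enzymes examined, which draw off glucose 6-phosphate to make NADPH and ribose phosphate, 1 fell in Y-P vs Y-E. TKT, the transketolase that returns sugars to glycolysis, was at 907 to 1611 CPM in Y-A (median 962), 1187 to 1958 CPM in Y-E (median 1425) and 747 to 1182 CPM in Y-P (median 936), with no overlap of Y-E and Y-P. Its log2 fold change was -0.64 ± 0.17 (adjusted p 0.0165), and the call was lost in both limma fits.

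Of the 6 glycogen enzymes tested, 2 fell in Y-P vs Y-E. GYS1, the glycogen synthase of tissues other than liver, was at 148 to 283 CPM in Y-A (median 192), 205 to 376 CPM in Y-E (median 298) and 111 to 190 CPM in Y-P (median 145), with no overlap of Y-E and Y-P and a log2 fold change of -1.06 ± 0.17 (adjusted p 0.000766). PYGL, a glycogen phosphorylase, had -0.70 ± 0.16 (adjusted p 0.00784). The paralog PYGB had 0.23 and did not pass (adjusted p 0.118).

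**Figure D5:**
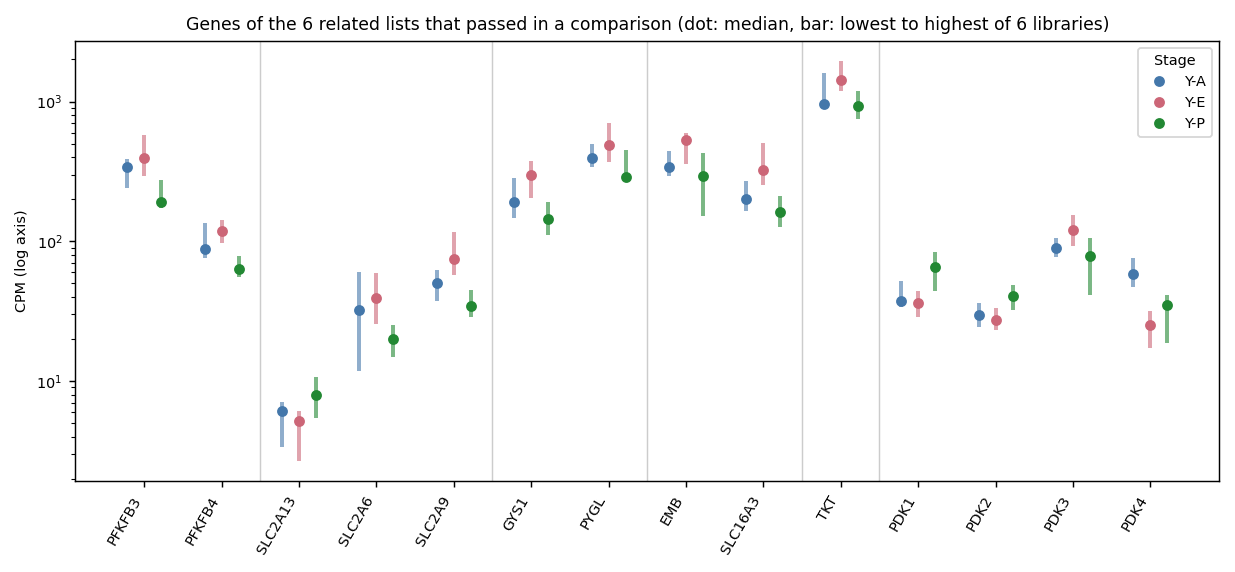
CPM (y axis, logarithmic) of the 14 genes of the 6 related lists that passed in at least 1 comparison, with the median of 6 libraries as a dot and the range as a bar for each stage. The glycogen, carrier and PFKFB genes have their highest medians in Y-E and their lowest in Y-P, PDK1 and PDK2 are highest in Y-P, and PDK4 is highest in Y-A.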

How the data were processed

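RNA was extracted with TRIzol LS from EDTA blood, and poly(A) libraries were sequenced as pairs. The authors trimmed the reads with cutadapt 1.9 (the paper's results name Fastp), aligned them with HISAT2 2.2.1 to Bos grunniens v101, assembled transcripts with StringTie 2.1.6, and deposited FPKM from StringTie and ballgown, scaled by exon length and mapped reads. The authors also deposited whole-number counts per gene, not normalized. The paper states that reads placed at a single genomic location were carried forward. The counting method itself is not given in the sources used here. The depth, 30247267 to 48401076 counts per library, leaves a floor of 3 counts. Each SE is the size of the log2 fold change divided by the square root of the quasi-likelihood F statistic. It reflects the spread between libraries, with the dispersion moderated across genes. Columns were assigned to stages by their names, which match the sample titles.

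The counts were tested in R 4.3.3 with edgeR 4.0.16 (filterByExpr by stage, TMM, quasi-likelihood, stage as the factor, all 18 libraries, two-sided, Benjamini-Hochberg over the 14508 genes tested). CPM are on the TMM scale. A gene passed at an adjusted p under 0.05. Isozyme shares were tested by exact permutation (two-sided) in Python 3.11.15 with scipy 1.17.1, without pairing libraries of the same number. Of the 12 planned tests 9 were run, since no row is named LDHA or LDHB. Alternatives used DESeq2 1.42.0, limma 3.58.1 on log2(FPKM + 1) and log2(FPKM + 0.1), other scalings and filters, a replicate block, and each library left out. The number of a library was taken as that of a cow, since the study followed 6 cows over the stages; deviations of same-numbered libraries correlated at 0.110 to 0.515 in Y-E vs Y-A, at -0.0492 to 0.369 in Y-P vs Y-A and at -0.0544 to 0.400 in Y-P vs Y-E. Some genes of the related lists are not reported here. The fit was first tested on simulated counts. The members and lists were chosen with earlier results of these data known. Values per library are given for members past the threshold (at most 25, by adjusted p), the most abundant member of each step and up to 3 passing genes per related list; the red cell rows, GAPDHS, ALDH7A1, FBP2 and others that did not pass were named after their values were seen.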

Additional observations from a re-analysis of the deposited data

Results flagged for a closer look

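Of 126 groups of 6 libraries checked, 9 held a library set apart from the others of its stage by a gap past Dixon's 95% critical value for 6 values, where chance gives about 1 in 20. Y-A replicate 6 accounted for 5 of the 9, with ENSBGRG00000004162 at 87.8 CPM (7.97 to 12.5 CPM in the others), ENSBGRG00000004999 at 6.259 CPM (0.672 to 1.62 CPM), PKLR at 26.88 CPM (4.17 to 9.13 CPM), PDK1 at 51.63 CPM (33.8 to 38.4 CPM) and an HK3 share of hexokinase FPKM of 74.92% (81.9% to 83.4%). This library had the highest hemoglobin share, and the part of red cell RNA in these values was not tested.

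Y-E replicate 6 was apart in ENSBGRG00000004162, at 37.99 CPM (6.33 to 8.70 CPM in the others), and in ARID5B, at 96.3 CPM (111 to 119 CPM). Without this library ARID5B kept its call in Y-P vs Y-E, with an adjusted p of 0.00382 in edgeR's quasi-likelihood test. The remaining libraries set apart were Y-A replicate 5 for PFKFB4 (135.0 CPM, against 75.4 to 97.4 CPM) and Y-P replicate 6 for PYGL (452.7 CPM, against 269 to 310 CPM).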

How the results depend on the processing

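Of the 10 members past the threshold, PGM2 and ENSBGRG00000012448 passed in Y-P vs Y-E in all 28 alternatives, and LUC7L3 in Y-P vs Y-A in all 28. In Y-P vs Y-E the call was lost in 14 alternatives for ADH5, 11 for ENO3, 8 for ALDOA, 4 for DLAT, 3 each for LUC7L3 and PDHB, 2 for ARID5B and 1 for PDHA1, and no direction changed. Members past the threshold in Y-E vs Y-A numbered 1 with DESeq2 (against 0.756% of genes) in place of 0. In Y-P vs Y-A they numbered 5 with DESeq2 (against 11.6% of genes), 7 with library size scaling, 14 with either limma fit, 3 with the replicate block and 0 without the rows named for other genes (chosen after seeing the data), in place of 1. In Y-P vs Y-E the count with the fold threshold was 0 with library size scaling, either limma fit, only the 2 stages or the replicate block, and 1 with red cell genes removed, in place of 2. The block gave 13 in place of 10 in Y-P vs Y-E, losing ADH5 and adding ALDOC, the glyceraldehyde-3-phosphate dehydrogenase row, ALDH7A1 and SOGA1, and DESeq2 gave 15, against 22.3% of the genes to which it gave an adjusted p. The related lists, whose alternatives were chosen after seeing the data, held 3 calls in Y-E vs Y-A with DESeq2 in place of 1, and 3 in Y-P vs Y-A with no low-count filter or with only the 2 stages, in place of 5. In counts, the HK3 share differed by 5.138 points in Y-P vs Y-A and the PFKL share by 4.276 points in Y-P vs Y-E, both past the adjusted threshold. The causes were not tested.

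With 1 library left out, members past the threshold numbered 1 to 5 in Y-P vs Y-A and 5 to 16 in Y-P vs Y-E. The latter count was 5 without Y-E replicate 3, 6 without Y-E replicate 2 or Y-P replicate 5, and 16 without Y-E replicate 4. It was 0 to 2 with the fold threshold. The number of all genes passing moved too. In Y-P vs Y-E it was 1431 when Y-E replicate 3 was dropped, 2305 when Y-E replicate 4 was dropped and 2096 in the full set. In Y-P vs Y-A it spanned 386 to 1077, beside 846 in the full set. The related lists held 2 to 5 calls in Y-P vs Y-A. The HK3 share differed by -0.09511 to 1.871 points in Y-E vs Y-A (reversed without Y-A replicate 6) and by 2.185 to 4.082 in Y-P vs Y-A, the PFKL share by 4.349 to 5.441 in Y-P vs Y-E, and the ALDOA share by -0.6765 to 0.2345 in Y-P vs Y-E (0.02948, 0.2345, 0.009139 and 0.1738 without Y-E replicates 2 and 4 and Y-P replicates 1 and 3). The LDHA share was not run. Members at a few counts per library, such as PCK1, PGK2 and ALDH3A1, had SEs of 1.09 to 1.40 on the log2 scale, so changes of that size were not detectable at this depth.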
